A study of Mus musculus with 3 samples.

Results

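Hepatocytes store surplus triglyceride in lipid droplets, and 2 small gene families act on how large those droplets become. CIDE proteins sit where droplets touch each other and let neutral lipid pass from the smaller to the larger droplet, so that large droplets form, and FIT proteins reside in the endoplasmic reticulum and help newly made triglyceride bud into droplets. The group described here is Cidea, Cideb, Cidec, Fitm1 and Fitm2, chosen by symbol as 5 of the 32285 features of the count tables, and all 5 were found. Cidea and Cidec (also known as FSP27) are best known from brown and white fat and are low in lean liver, whereas Cideb belongs to the liver, where it also takes part in loading lipid onto very low density lipoprotein (VLDL). Fitm1 is best known from muscle, and Fitm2 is expressed broadly.

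Single-nucleus RNA-seq had been made from frozen liver of male C57BL/6 mice (C57BL/6N in the series text) aged 8 weeks when the diets began, with 1 library per group and 3 libraries in all. The SD library came from standard diet, and the MASLD library from 18 weeks on a diet causing metabolic dysfunction-associated steatotic liver disease, with 18.9 g/l glucose and 23.1 g/l fructose in the drink. For the Aza-TdC library, mice had that diet and drink plus the cytidine analogue 5-aza-4'-thio-2'-deoxycytidine, gavaged daily at 2 mg per kg from week 14 to week 18. The number of mice behind a library was not given in the sources used here. With 1 library per group no test between groups was possible. All intervals are 95% intervals for counting error only and do not hold the spread between mice, and a high or low level names a library, not a diet or a drug effect.

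The 3 libraries held between 6928 and 7598 barcodes and between 43569644 and 51789068 UMIs (unique molecules counted), and 11, 9 and 15 barcodes recurred between pairs of libraries. Nuclei were called hepatocyte-like from hepatocyte markers, which left 6157, 6004 and 6781 such nuclei in SD, MASLD and Aza-TdC. Different clusters supplied them: clusters 0, 2 and 3 held nearly all of SD, clusters 11, 12, 14 and 15 those of MASLD, and clusters 13, 15, 17, 18 and 19 those of Aza-TdC. A further 704 SD nuclei of cluster 1 (9.86% of those kept) and 102 MASLD and 121 Aza-TdC nuclei of cluster 16 passed by hepatocyte markers but stayed unnamed because of their leading genes or low depth. Median UMIs per hepatocyte-like nucleus were 6284, 6393.5 and 6769, and the median mitochondrial share was 0.117%, 0.188% and 0.0814%, in the order SD, MASLD, Aza-TdC. The MASLD library stood apart in hemoglobin RNA: 6 erythroid markers summed to 364 CPM (UMIs per 1000000 UMIs of the class) in its hepatocyte-like nuclei, against 37.4 in SD and 59.7 in Aza-TdC. Markers of other classes in these nuclei moved too, in the order SD, MASLD, Aza-TdC: the sum of 14 T and NK markers was 11.7, 64.1 and 11.6 CPM, that of 11 cholangiocyte markers 7.16, 19.7 and 11.3, and that of 16 stellate markers 79.2, 121.5 and 80.8. T and NK-like nuclei themselves numbered 23, 26 and 29. Themis, a marker of that list, was a leading gene of a MASLD cluster that was hepatocyte-like by its markers at a finer clustering. The 18 macrophage markers summed to 119.7, 204 and 210 CPM, higher in both diet libraries. The part of these in the results below was not tested.

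All 5 are protein-coding genes in GRCm38 (GENCODE M21). Cidec spans chr6:113424634-113435760 on the minus strand and Fitm2 chr2:163466379-163472629 on the minus strand. Cideb (chr14:55754050-55758458, minus strand) and Fitm1 (chr14:55575617-55576954, plus strand) share chromosome 14. Of the 5 genes, 4 overlap a gene of the other strand: Cidea overlaps B430212C06Rik over 500 bases that include its start, Cideb overlaps Nop9 at its end, Fitm1 overlaps Gm15932 at its start and Fitm2 overlaps 2310001K24Rik at its start. The use of strand in the authors' counting was not given in the sources used here. Reads from those stretches may belong to either gene of a pair.

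Because Cidec and both FIT genes were higher together in the MASLD library while Cideb differed little, the stretches before their starts are shown, from RefSeq on GRCm38.p6, with matches to the motifs searched in capitals. They are the up to 250 bases before the RefSeq start that lie in no annotated exon of the gene, read along its strand. Cidec has 2 starts.
Cidec first start, chr6:113435761-113436010, minus strand: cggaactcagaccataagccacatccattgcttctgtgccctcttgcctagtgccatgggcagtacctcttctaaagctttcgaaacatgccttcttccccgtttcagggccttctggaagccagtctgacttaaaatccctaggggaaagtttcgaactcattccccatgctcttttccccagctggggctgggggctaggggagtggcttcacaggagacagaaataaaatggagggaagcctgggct
Cidec second start, chr6:113434765-113435014, minus strand: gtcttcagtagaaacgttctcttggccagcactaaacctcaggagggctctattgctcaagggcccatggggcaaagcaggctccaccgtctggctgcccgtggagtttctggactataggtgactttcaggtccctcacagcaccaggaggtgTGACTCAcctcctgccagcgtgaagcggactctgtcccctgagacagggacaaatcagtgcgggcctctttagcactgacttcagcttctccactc
Cideb, chr14:55758459-55758674, minus strand: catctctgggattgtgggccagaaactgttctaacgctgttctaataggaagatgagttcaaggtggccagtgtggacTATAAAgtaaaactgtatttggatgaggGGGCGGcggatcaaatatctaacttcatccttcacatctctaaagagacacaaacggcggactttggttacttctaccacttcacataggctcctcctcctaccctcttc
Fitm1, chr14:55575424-55575616, plus strand: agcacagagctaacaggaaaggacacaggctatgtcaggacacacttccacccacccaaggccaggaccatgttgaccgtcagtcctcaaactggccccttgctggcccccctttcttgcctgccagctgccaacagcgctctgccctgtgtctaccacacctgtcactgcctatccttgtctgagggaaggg
Fitm2, chr2:163472630-163472879, minus strand: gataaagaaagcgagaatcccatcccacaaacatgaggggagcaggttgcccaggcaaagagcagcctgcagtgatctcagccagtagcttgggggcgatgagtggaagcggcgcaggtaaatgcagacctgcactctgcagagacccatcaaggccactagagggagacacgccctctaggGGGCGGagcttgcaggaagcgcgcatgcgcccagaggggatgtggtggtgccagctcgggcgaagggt

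Both strands were searched for 7 motifs. Cideb held the TATA box TATAAA, found in 12.4% of 32851 RefSeq promoter windows of 250 bases, and the GC box GGGCGG, found in 32.7%. Fitm2 held GGGCGG too, and the second Cidec start held the AP-1 site TGACTCA, found in 4.46%. The nuclear receptor binding letters AGGTCA (14.0% of windows), its direct repeat with 1 base between the copies (the form PPAR proteins bind, which contains those letters, 0.0335%), the E box CACGTG (6.02%) and the cyclic AMP element TGACGTCA (1.55%) were in none of these 5 windows. A match is a string of letters in this window and no more than that, and its absence says nothing of the factor.

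In hepatocyte-like nuclei the CIDE and FIT genes were all higher in the MASLD library than in SD, and all lower in Aza-TdC than in MASLD, but by very unequal amounts. Cidea was near 0 in SD and in Aza-TdC and reached 38.1 CPM in MASLD. Cidec was 17.3-fold higher in MASLD than in SD and stood well above SD in Aza-TdC too, Fitm1 and Fitm2 took middle positions, and Cideb differed least. Each value below is one library.

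Cidea, the CIDE gene typical of brown fat, had 0.449 CPM in SD (interval 0.270 to 0.701, 19 UMIs), 38.1 in MASLD (36.3 to 40.1, 1577 UMIs) and 0.584 in Aza-TdC (0.391 to 0.839, 29 UMIs). Only the MASLD library was high, and the other 2 intervals overlapped. The MASLD level was 85.0-fold that of SD (54.2 to 141.5, log2 ratio 6.41), and the Aza-TdC level was 65.3-fold under that of MASLD (45.3 to 97.8, log2 ratio -6.03). Aza-TdC to SD gave a log2 ratio of 0.38 (-0.50 to 1.30), so a difference between those 2 was not detectable at this depth. At a finer clustering that left 4110 MASLD nuclei in the class, the log2 ratios were 5.81 and -5.39, a shift of over 1.5 times in fold. The largest cluster left out there held 1726 MASLD nuclei and was hepatocyte-like by its markers. B430212C06Rik, which overlaps Cidea, was among its leading genes, and its part in the shift was not tested.

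Cidec, which drives droplet fusion in white fat, had 12.5 CPM in SD (11.5 to 13.6), 216 in MASLD (212 to 221) and 87.9 in Aza-TdC (85.3 to 90.5). No 2 libraries overlapped, and the order was SD, Aza-TdC, MASLD. MASLD was 17.3-fold above SD (15.9 to 18.9) and Aza-TdC was 2.46-fold under MASLD (2.37 to 2.55) but still 7.03-fold above SD (6.42 to 7.71). In contrast to Cidea, most of the gap between SD and MASLD on the log2 scale, 4.11, remained in Aza-TdC, at 2.81.

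Cideb, the CIDE member of normal liver, had 54.7 CPM in SD (52.5 to 57.0), 80.9 in MASLD (78.2 to 83.7) and 51.0 in Aza-TdC (49.0 to 53.0). MASLD was 1.48-fold above SD (1.40 to 1.56), and Aza-TdC lay just under SD, with a log2 ratio of -0.10 (-0.18 to -0.02). A ratio that near 0 depends on the scaling, because the median gene itself stood at 0.15 in MASLD to SD, -0.09 in Aza-TdC to MASLD and 0.06 in Aza-TdC to SD. Relative to that median the Cideb ratios remain above 0 in the first comparison and under 0 in the others.

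The FIT genes differed in the same directions. Fitm1 had 5.20 CPM in SD (4.53 to 5.93), 25.9 in MASLD (24.4 to 27.5) and 8.00 in Aza-TdC (7.23 to 8.83). That is 4.98-fold higher in MASLD than in SD (4.31 to 5.79) and 3.24-fold lower in Aza-TdC than in MASLD (2.88 to 3.64). Fitm2 had 22.2 CPM in SD (20.8 to 23.7), 53.3 in MASLD (51.1 to 55.6) and 29.3 in Aza-TdC (27.8 to 30.8). Its folds were 2.40 (2.22 to 2.59) and 1.82 (1.70 to 1.95), and both FIT genes in Aza-TdC stood a little above SD, with log2 ratios of 0.62 and 0.40.

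A gene was counted as past the fold where its log2 ratio reached 1 or -1. By that rule 4 of the 5 genes were higher and 0 lower in MASLD than in SD, where 13.5% of 15714 measured genes were higher and 5.11% lower. In Aza-TdC against MASLD, which shares the MASLD library, 3 of the 5 (Cidea, Cidec and Fitm1) were lower and 0 higher, where 5.29% of 15942 genes were lower and 3.05% higher. In Aza-TdC against SD, 1 of the 5 (Cidec) was higher and 0 lower, where 10.5% of 15817 genes were higher and 5.09% lower. By rank of the log2 ratio, Cidea was the gene numbered 34 from the top in MASLD to SD and 10 from the bottom in Aza-TdC to MASLD, and Cidec was numbered 116 and 460 in the same way. A gene needed 20 UMIs in the 2 libraries together to be measured, and all 5 genes passed in each comparison.

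**Figure D1:**
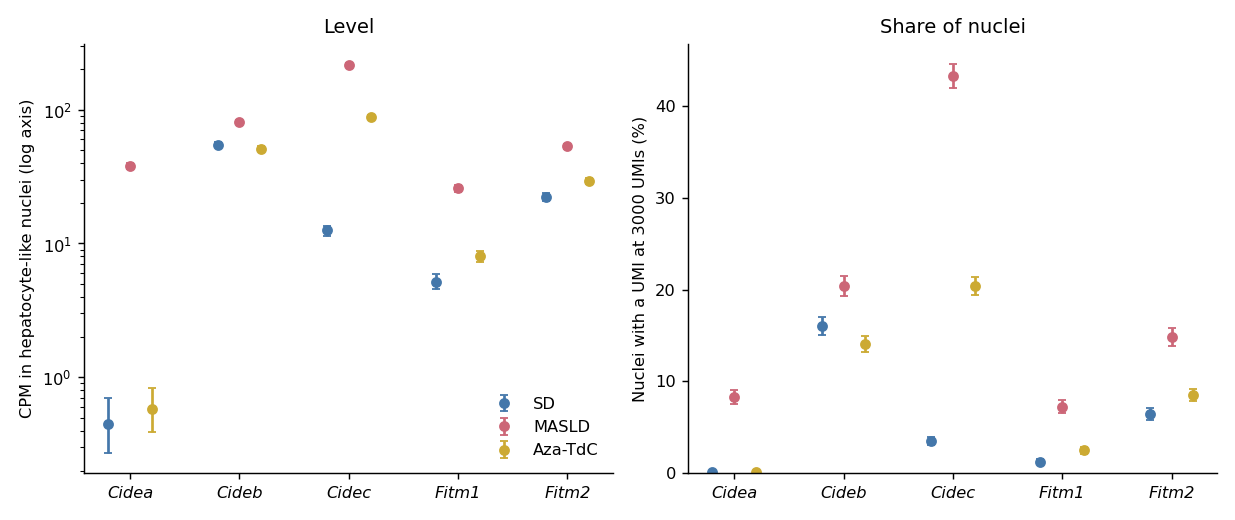
Level (left, CPM, log axis) and share of nuclei with a UMI after thinning to 3000 UMIs (right, %) of the 5 genes in hepatocyte-like nuclei, 1 point per library with 95% counting intervals. Cidea is at 38.1 CPM in MASLD and under 1 CPM in both other libraries, while Cidec in Aza-TdC lies between SD and MASLD.

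**Figure D2:**
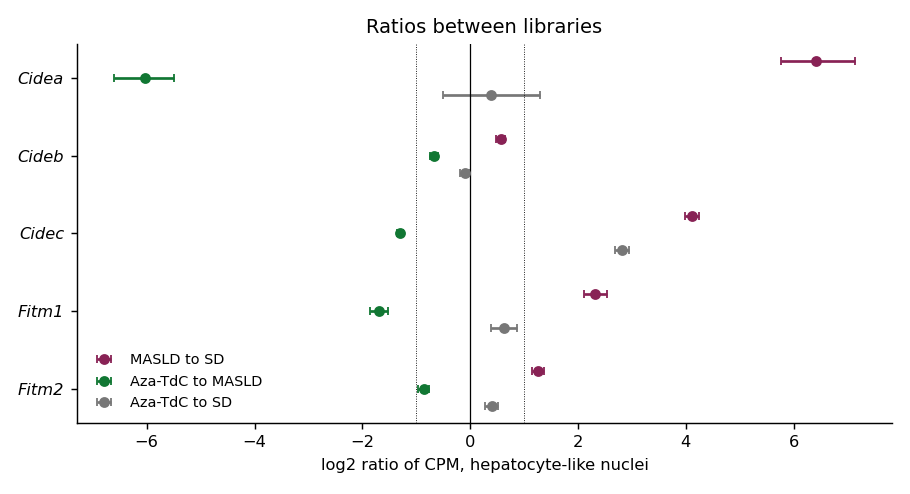
log2 ratio of CPM between libraries for the 5 genes, with 95% counting intervals, where dotted lines mark a log2 ratio of -1 and 1. The Aza-TdC to SD ratio of Cidec, 2.81, is the one ratio of that comparison past the dotted lines.

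More nuclei carried the transcripts where the level was higher. To make depth equal, each nucleus was thinned to 3000 UMIs, which left out 198 SD, 373 MASLD and 295 Aza-TdC nuclei of lower depth. Cidec was then found in 3.47% of SD nuclei (3.02 to 3.97), 43.2% of MASLD nuclei (41.9 to 44.6) and 20.4% of Aza-TdC nuclei (19.4 to 21.4), and without thinning in 7.81%, 63.4% and 35.9%. Cidea was found in 8.24% of MASLD nuclei (7.54 to 8.99), but in 0.0671% of SD and 0.0925% of Aza-TdC nuclei, and without thinning in 0.227%, 13.9% and 0.324%. Thus Cidec was detected in a large share of MASLD hepatocyte-like nuclei and Cidea in a minority of them.

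The shares of the other 3 genes followed their levels. After thinning, Cideb was in 16.01% of SD, 20.4% of MASLD and 14.05% of Aza-TdC nuclei. Fitm1 was in 1.23%, 7.19% and 2.45%, and Fitm2 in 6.38%, 14.8% and 8.48%. Without thinning, Cideb was in 29.9%, 39.5% and 29.2%, Fitm1 in 3.20%, 14.6% and 5.44%, and Fitm2 in 13.8%, 28.8% and 18.2%. Of the thinned nuclei, 75.2% in SD had none of the 5 transcripts, against 34.0% in MASLD and 61.3% in Aza-TdC.

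Free RNA can put hepatocyte transcripts into any droplet, and the other classes show how much. In the macrophage-like nuclei of MASLD (244 nuclei, median 2290.5 UMIs), 22 hepatocyte markers had a median level of 0.431 of that in hepatocyte-like nuclei, while Cidea stood at 0.180 (0.0584 to 0.420, 5 UMIs) and Cidec at 0.285 (0.208 to 0.382). In endothelial-like nuclei of that library (195 nuclei, median 1734 UMIs) the markers stood at 0.775, Cidea at 0.158 and Cidec at 0.586 (0.450 to 0.750). Both genes were therefore no higher in these classes than the markers of free hepatocyte RNA. The unthinned share with a Cidec UMI was 13.1% in macrophage-like and 15.9% in endothelial-like nuclei, against 63.4% of hepatocyte-like ones with their median of 6393.5 UMIs.

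Among the other classes, the highest ratio to hepatocyte-like nuclei on 20 or more UMIs was Fitm1 in the endothelial-like nuclei of MASLD, at 1.63 times the hepatocyte-like level (1.01 to 2.49, 21 UMIs), and in Aza-TdC the same ratio was 1.43 on 5 UMIs. Cidea had 0 UMIs in the macrophage-like, endothelial-like, stellate-like, mesothelial-like and T and NK-like nuclei of both SD and Aza-TdC. The upper interval limits there ran from 3.22 to 57.8 CPM. They lie above the hepatocyte-like levels of 0.449 (SD) and 0.584 (Aza-TdC), so these classes cannot be told from hepatocyte-like nuclei at this depth.

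Since Cidea and Cidec are fat cell genes, fat cell markers were read in the same hepatocyte-like nuclei. Of 12 adipocyte markers, 3 were at 0 in SD and 4 in both MASLD and Aza-TdC, and their summed levels were 49.5, 60.8 and 47.2 CPM, most of it from Lipe and Adrb3. Adipoq had 1, 0 and 1 UMIs, and Lep and Ucp1 had 0 in every library. Plin1 had 12, 14 and 15 UMIs and Retn 9, 2 and 22. In MASLD 2 of the markers were higher in the same way as Cidea: Fabp4, which hepatocytes and endothelium can also carry, had 18, 125 and 35 UMIs, and Cfd had 0, 31 and 0. The part of fat cell RNA in the levels of Cidea and Cidec was not tested.

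Within the liver lobule, hepatocytes near the central vein carry Cyp2e1 and, in the last layer, Glul, and those near the portal vein carry Cyp2f2. Nuclei were ranked in each library by log2((Cyp2e1 + Glul UMIs + 0.5)/(Cyp2f2 UMIs + 0.5)) and divided into 5 groups of similar size (1121 to 1364 nuclei in MASLD), called zones here, from 1 (Cyp2f2 side) to 5 (Cyp2e1 side). As a check, all 12 pericentral genes outside the index were higher in zone 5 than in zone 1 in each library, and 13 of 13, 14 of 14 and 13 of 14 measured periportal genes were lower (SD, MASLD, Aza-TdC). Within 0.25 index units of a border lay 1159, 1656 and 1362 nuclei. Cidea, Cidec, Fitm1 and Fitm2 were higher on the Cyp2e1 side in every library with UMIs to compare, and Cideb was slightly lower there.

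Cidea had the steepest gradient of the group in MASLD, with 3.54, 7.11, 42.8, 72.5 and 59.5 CPM from zone 1 to zone 5. Zone 5 stood 16.8-fold above zone 1 (11.5 to 25.5), yet zone 4 was the highest, and zone 5 to zone 4 gave a log2 ratio of -0.28 (-0.45 to -0.12). The few UMIs of the other libraries lay on the same side: 14 of the 19 in SD were in zone 5, and Aza-TdC had 0, 0, 1, 9 and 19 UMIs across the zones. In zone 1 of Aza-TdC the 0 UMIs allow a level of up to 0.298 CPM (3 counts), against 1.62 in zone 5.

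The Aza-TdC level of Cidea was far under that of MASLD in every zone. In zones 1 and 2 its 0 UMIs allow up to 0.298 and 0.292 CPM, where MASLD had 3.54 and 7.11. In zones 4 and 5 the log2 ratios were -6.15 (-7.28 to -5.21) and -5.20 (-5.94 to -4.54). A zone of 1 library need not hold the same index range as in another: zone 3 of MASLD held index values from 1.62 to 3.94 and zone 3 of Aza-TdC those from -0.84 to 1.24, which do not overlap. The SD borders were therefore also applied to all 3 libraries, chosen after the data were seen, and the resulting ranges are numbered like the zones. Above the highest SD border Cidea then had 1.40 CPM in SD (1199 nuclei), 64.3 in MASLD (2195 nuclei) and 1.61 in Aza-TdC (1657 nuclei). In MASLD the range below it had 55.01 CPM. The highest SD border, 4.12, lies within zone 4 of MASLD (3.94 to 5.00). The top range thus pools part of zone 4 with zone 5, so these borders cannot order those zones.

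Cidec was spread over the whole lobule in MASLD, at 156.8, 162.5, 233, 250.1 and 266 CPM from zone 1 to zone 5, 1.70-fold higher at the end than at the start (1.59 to 1.82). In Aza-TdC the same zones had 54.7, 46.1, 58.0, 116.7 and 153.8 CPM, 2.81-fold higher at the end (2.55 to 3.10). Zone by zone the log2 ratios to MASLD were -1.52, -1.82, -2.01, -1.10 and -0.79. With the SD borders for all libraries they were -1.64, -1.36, -1.42, -0.92 and -0.79, so the low point of zone 3 was not there. The deficit was uneven with these borders too, since the intervals of range 1 (-1.77 to -1.51) and range 5 (-0.87 to -0.71) did not touch. SD was low throughout, from 9.45 CPM in zone 1 to 18.1 in zone 5.

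Fitm1 had 40.7 CPM in zone 5 of MASLD, 3.70-fold above zone 1 (2.93 to 4.71). In SD it went from 1.57 to 10.5 CPM (6.67-fold, 3.74 to 12.9), and in Aza-TdC from 3.67 to 15.7 (4.27-fold, 2.99 to 6.26). Fitm2 had a flatter course, higher in zone 5 than in zone 1 by 1.46-fold in MASLD (1.28 to 1.67), 1.37-fold in SD and 1.23-fold in Aza-TdC. In Aza-TdC to MASLD the log2 ratios of Fitm1 and Fitm2 in zone 3 were -2.57 and -1.29, but with the SD borders they were -1.45 and -0.50, and the lowest were those of range 2, at -1.90 and -1.04. With those borders Aza-TdC stood above SD in range 3, with log2 ratios of 0.74 (0.01 to 1.47) for Fitm1 and 0.55 (0.23 to 0.87) for Fitm2. Cideb went from 90.9 to 73.7 CPM across the MASLD zones, from 57.4 to 48.6 in SD and from 52.7 to 45.8 in Aza-TdC, log2 ratios of -0.30, -0.24 and -0.20 whose intervals all lay under 0.

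Pparg, the nuclear receptor that drives fat storage genes and whose known targets include Cidea and Cidec, gives a comparison for these gradients. It had 60.45, 80.9, 121.4, 143.7 and 151.3 CPM in the MASLD zones, and 10.3, 10.0, 19.8, 117.4 and 166 in Aza-TdC. In zone 5 the 2 libraries were close, with a log2 ratio of 0.14 (0.04 to 0.23), whereas Cidea there stood at -5.20 and Cidec at -0.79. In zone 2, Pparg was at -3.01 and Cidec at -1.82, and with the SD borders at -1.84 (-2.12 to -1.56) and -1.36 (-1.53 to -1.20). How much of the CIDE pattern follows Pparg was not tested.

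**Figure D3:**
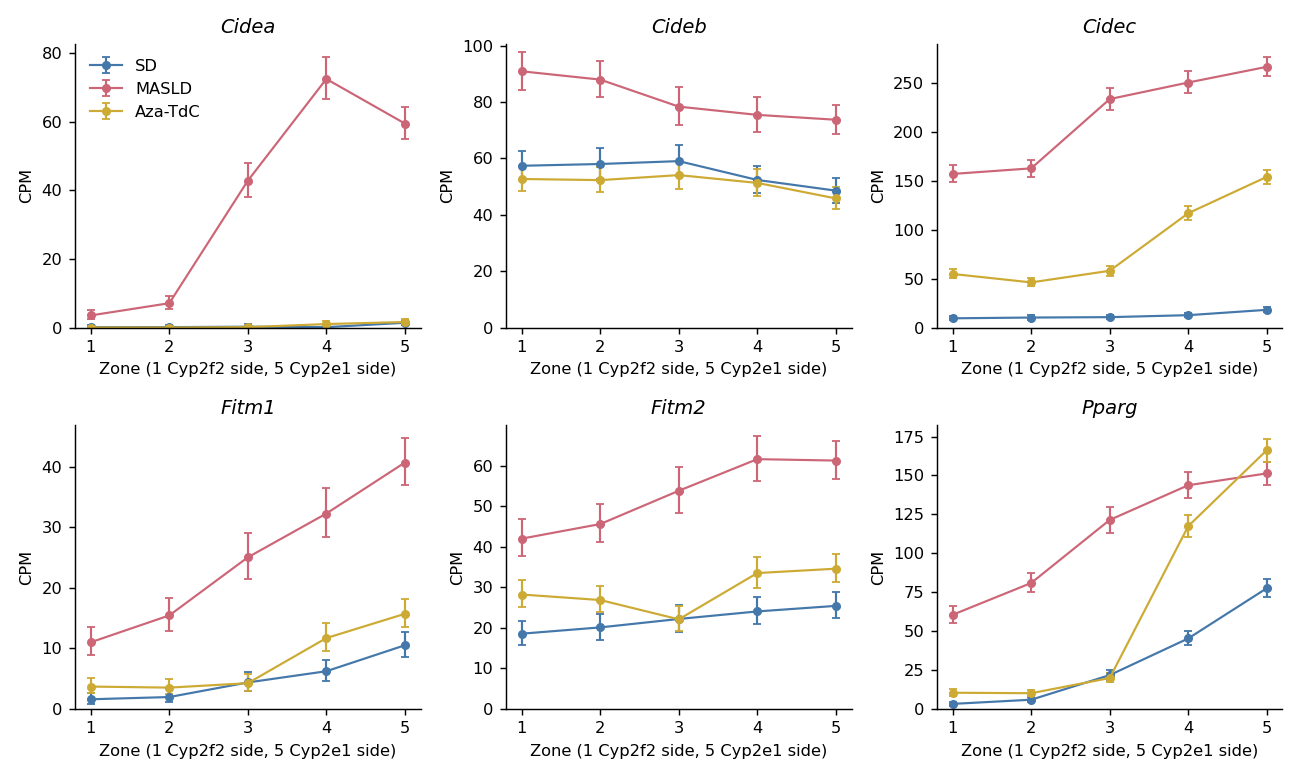
CPM of the 5 genes and of Pparg in zones of hepatocyte-like nuclei, from the Cyp2f2 side (1) to the Cyp2e1 side (5), 1 line per library with 95% counting intervals. The highest point of Cidea in MASLD is zone 4, at 72.5 CPM, but its order with zone 5 is not settled. In zone 5 the Aza-TdC line of Pparg is above that of MASLD, while the Aza-TdC line of Cidea is at 1.62 CPM.

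Nuclei with 3 or more Glul UMIs, called Glul-high here, numbered 226 in SD (3.67%), against 516 in MASLD (8.59%) and 254 in Aza-TdC (3.75%). They were not all on the Cyp2e1 side: 340 of the 516 in MASLD (65.9%) lay in zone 5, and their Cyp2f2 was at 60.9 CPM, against 5.42 in the rest of zones 4 and 5. Set against the rest of zones 4 and 5 in MASLD, Cidea was lower in Glul-high nuclei (47.4 against 68.5 CPM, log2 ratio -0.53, -0.76 to -0.31). Cidec was lower as well (215 against 269 CPM, log2 ratio -0.32, -0.42 to -0.22), and in Aza-TdC more so (81.2 against 144.3 CPM, -0.83, -1.05 to -0.62). Fitm1 was not lower there: its MASLD log2 ratio was 0.22 (-0.03 to 0.47). Within zone 5 alone, a comparison added after the data were seen, Glul-high nuclei of MASLD again had less Cidea (44.9 against 64.8 CPM, -0.53, -0.82 to -0.25) and less Cidec (214 against 285 CPM, -0.41, -0.54 to -0.28) than the other nuclei. Against all other hepatocyte-like nuclei of MASLD, Cidea was higher in Glul-high ones (0.35, 0.13 to 0.57) and Cidec was at -0.01 (-0.11 to 0.09). In Aza-TdC Cidea had 0 UMIs in Glul-high nuclei and 28 in the rest of zones 4 and 5, too few to tell at this depth.

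Much of the Cidea RNA sat in few nuclei. Of the 833 MASLD nuclei with a Cidea UMI, 507 had 1, 151 had 2 and 175 had 3 or more, up to 13. Those 175 nuclei, 2.91% of the class, held 48.7% of all its Cidea UMIs, and without them the MASLD level was 20.3 CPM. Cidec, with many more positive nuclei, had 1563 with 1 UMI, 960 with 2 and 1284 with 3 or more. Fitm1 had 26 of 876 with 3 or more, Fitm2 78 of 1728 and Cideb 212 of 2370.

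The Fano factor, variance over mean, is 1 for counts that scatter at random at equal depth. After thinning it was 1.79 for Cidea in MASLD, against 1.22 for Cidec, 1.10 for Cideb, 1.10 for Fitm1 and 1.04 for Fitm2. The gradient across the lobule adds to that value, so it was also taken within zones, a step added after the data were seen. Cidea had 1.07 in zone 2, 1.38 in zone 3, 2.03 in zone 4 and 1.69 in zone 5, while the other 4 genes ranged from 0.965 to 1.38 over the MASLD zones. Counting intervals for Cidea in MASLD are therefore too narrow, since its UMIs are not independent draws. Such spread was not particular to Cidea. Over all MASLD zones the factor was 1.79 for Plin4, 1.61 for Plin2, 1.43 for Cd36 and 7.18 for Glul. Their intervals may be too narrow as well. These factors are for thinned counts, and the extent at full depth was not computed.

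**Figure D4:**
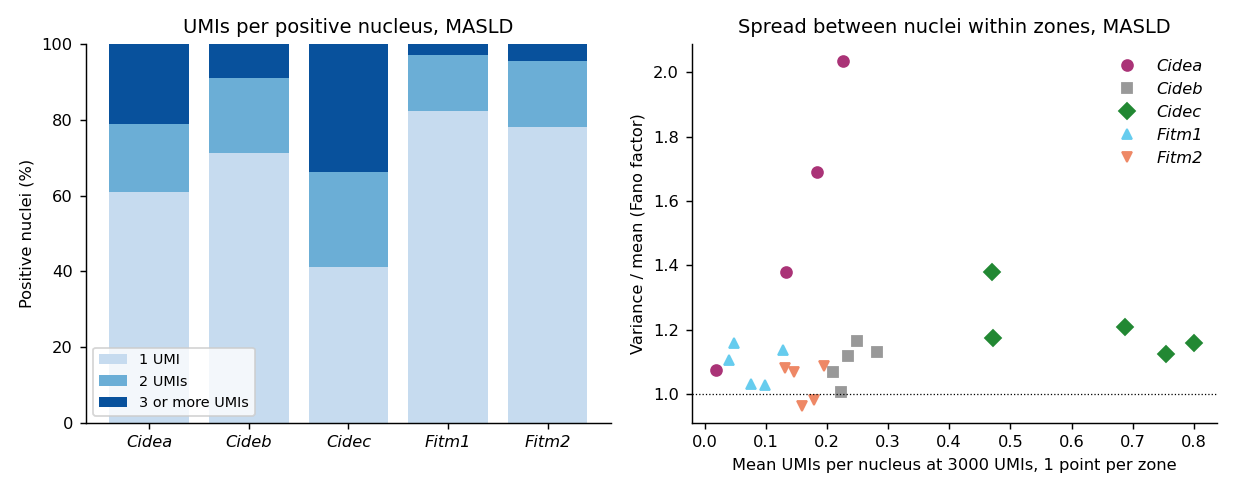
Left, share of positive MASLD hepatocyte-like nuclei with 1, 2 or at least 3 UMIs of each gene. Right, Fano factor against mean UMIs per nucleus at 3000 UMIs, 1 point per MASLD zone with at least 20 UMIs, where the dotted line is the value for random scatter, and Cidea reaches 2.03 in zone 4 at a mean of 0.226 UMIs.

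The 145 nuclei of MASLD zones 4 and 5 with at least 3 Cidea UMIs were set beside the 1786 nuclei of those zones with none. Cidec was 305 against 254 CPM (log2 ratio 0.26, 0.11 to 0.41). Cideb (-0.05), Fitm1 (-0.13), Fitm2 (-0.05) and Pparg (0.05) had intervals holding 0. The droplet coat gene Plin2 was at 508 against 391 CPM (0.38, 0.26 to 0.49). Plin4 was higher too, at 527 against 448 CPM (0.24, 0.12 to 0.35), as was Cd36, at 436 against 376 CPM (0.21, 0.09 to 0.34). Glul was lower, at 234 against 476 CPM, and Cyp2e1 was at 0.02 (-0.04 to 0.07). Median depth was 8912 against 7066 UMIs, and median mitochondrial share 0.158% against 0.180%. Nuclei high in Cidea thus had somewhat more Cidec, Plin2, Plin4 and Cd36 and less Glul. In the other 3 genes of the group no difference was detectable at this depth.

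RNA of the overlapping neighbour on the other strand went with Cidea, a comparison made after the data were seen. B430212C06Rik had 0.307, 10.2 and 0.685 CPM in SD, MASLD and Aza-TdC, log2 ratios of 5.05 (4.26 to 5.97) and -3.89 (-4.44 to -3.38). In MASLD, 16.8% of Cidea-positive nuclei held it (14.3 to 19.5) against 3.91% of Cidea-negative ones (3.395 to 4.47), at median depths of 7189 and 6273 UMIs. In the nuclei of zones 4 and 5 with at least 3 Cidea UMIs it was at 49.6 CPM, a log2 ratio of 2.17 (1.73 to 2.60) to those with no Cidea UMI. In SD, 4 of the 14 Cidea-positive nuclei held it, where 0.114% of the negative ones did, and in Aza-TdC 4 of 22 and 0.385%. Whether these are reads of 1 transcript assigned to both genes was not tested. Nop9, which overlaps the end of Cideb, had 22.3, 16.04 and 17.9 CPM, with log2 ratios of -0.48 (-0.62 to -0.33) in MASLD to SD and 0.16 (0.01 to 0.31) in Aza-TdC to MASLD, the reverse of Cideb. The neighbours of the FIT genes had few UMIs. Gm15932 (by Fitm1) was at 1.04 CPM in both SD and MASLD, and 2310001K24Rik (by Fitm2) at 0.520 and 1.38, on 22 and 57 UMIs. Log2 ratios of 2310001K24Rik had the directions of Fitm2, 1.41 (0.67 to 2.19) in MASLD to SD and -0.67 (-1.28 to -0.07) in Aza-TdC to MASLD.

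At 3000 UMIs per nucleus, some pairs of the 5 genes were found together more often than independent detection gives. Position in the lobule took up much of that for Cidea with Cidec and for Cidea with Fitm1. Cidea and Cidec were both found in 233 of 5631 MASLD nuclei, where 200.6 are expected from their separate shares, an odds ratio of 1.36. Combined over the zones (Mantel-Haenszel) it was 1.06. Cidea and Fitm1 had 1.60, and 1.21 over the zones. Cidec and Fitm1 had 1.65 and 1.45, Fitm1 and Fitm2 had 1.39 and 1.31, and Cidea and Fitm2 had 1.43 and 1.30. At 1500 UMIs the last 3 of these pairs went under 1, to odds ratios of 0.974, 0.794 and 0.967, so their direction is not stable against depth. Cideb gave 0.852 with Cidea, 0.998 with Cidec, 1.13 with Fitm1 and 0.9502 with Fitm2. The odds ratios are descriptions over nuclei of 1 library and have no test.

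With other lipid genes of MASLD nuclei, the highest odds ratio was that of Cidea with Plin4, a droplet coat gene. It was 2.84, and 1.51 over the zones. Plin4 was in 71.3% of Cidea-positive (67.0 to 75.4) and 46.7% of Cidea-negative nuclei (45.3 to 48.1). Cidea with Pparg gave 1.22, and 0.898 over the zones. With the zonation gene Glul, Cidea gave 1.61, and 1.16 over the zones. For Cidec in Aza-TdC, Pparg was in 23.3% of positive (21.0 to 25.7) and 12.8% of negative nuclei. The number of the 5 genes seen per nucleus also differed: at least 4 were found in 24 of 5631 MASLD nuclei (0.426%) and in 0 of 5959 SD and 0 of 6486 Aza-TdC nuclei, and exactly 2 in 18.5%, 2.27% and 5.81% of MASLD, SD and Aza-TdC nuclei. Such counts rise with the levels of the genes, and the number expected from the levels was not computed.

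Lists of neighbouring pathways were read in the same nuclei, beside the all-gene median log2 ratios of 0.15 (MASLD to SD) and -0.09 (Aza-TdC to MASLD) and the shares past the fold given above. The lists were chosen with earlier results of these data known, so their counts are descriptions only. Of 21 measured genes linked to PPARG in fatty acid uptake and storage, 16 were higher and 0 lower past the fold in MASLD than in SD, with a median of 2.48. The fatty acid transporter Cd36 went from 9.05 to 342 CPM, the intestinal-type fatty acid binding protein Fabp2 from 3.76 to 68.9, and lipoprotein lipase, Lpl, from 0.165 to 4.52. In Aza-TdC against MASLD 6 of the 21 were lower and 1 higher, median -0.72. Cd36 then stood at 207.8 CPM, 23.0-fold above SD (20.7 to 25.5), while Cidea had 0.584 CPM against 0.449 in SD, on 29 and 19 UMIs. The list shares Mogat1, Plin2, Plin4, G0s2, Agpat2 and Acsl1 with the lists that follow. How far its genes follow PPARG was not tested.

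Of 24 droplet coat, lipase and biogenesis genes, 9 were higher and 0 lower in MASLD than in SD, with a median of 0.58. Plin4 went from 62.8 to 310.5 CPM and G0s2, an inhibitor of the lipase ATGL, from 243 to 923, and these were lower again in Aza-TdC, at 158 and 439. Plin5, the perilipin that ties droplets to mitochondria, was at 72.3, 77.2 and 90.3 CPM in SD, MASLD and Aza-TdC. Of 19 measured triglyceride synthesis genes, 5 were higher and 2 lower in MASLD, with a median of 0.52. Of 21 measured VLDL genes, 7 were higher and 0 lower, with a median of 0.49, Apoa4 among them at 11.2 and 487 CPM.

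Of 20 regulators, 4 were higher and 1 lower past the fold in MASLD than in SD, with a median of -0.12, and 0 were past the fold in either direction in Aza-TdC against MASLD. Pparg went from 33.1 to 113.7 and 67.7 CPM in SD, MASLD and Aza-TdC. Ppara, the fatty acid oxidation receptor, had 1805, 2306 and 2513. Creb3l3, a liver transcription factor of fasting, had 512.8, 318.9 and 384. Dffa and Dffb, from whose shared domain the CIDE proteins take their name, were not past the fold in either comparison. Their log2 ratios in MASLD to SD were -0.28 and -0.42.

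The genes with the most similar pattern over 15 sums (3 libraries by 5 zones, log2(CPM + 1)) were different for each of the 5. For Cidea they included Gpd2, the mitochondrial glycerol-3-phosphate dehydrogenase (Pearson r 0.97), and Piezo1 (0.97), out of 10414 genes. For Cideb they were Apoc3, Etfb and Ndufb9 (each 0.98), for Cidec Ctse, Tbl1xr1 and Csrp3 (0.99, 0.99 and 0.99), for Fitm1 Diaph2, Zfp423 and Wwtr1 (0.99, 0.99 and 0.98), and for Fitm2 Hsd17b4, Arpp19 and Gmds (0.98, 0.97 and 0.97). Sums of 1 library share depth and free RNA, so these are descriptions of likeness. The r compares the shape of a pattern and not its size. In SD, MASLD and Aza-TdC, Gpd2 had 122.7, 211.4 and 130.2 CPM and Piezo1 6.00, 12.5 and 5.42. Cidea, at 0.449, 38.15 and 0.584 CPM, differed far more. Among the 5 genes themselves the highest r was that of Fitm1 with Fitm2 (0.93), and the lowest that of Cideb with Fitm1 (0.49).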

How the data were processed

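The deposited files hold raw UMI counts per gene and nucleus, which per the file headers the authors made with Cell Ranger 6.1.2. Nuclei came from 120 mg of frozen liver per library and were run with 10x 3' chemistry, per the labels' protocols. The submitters' processing notes list Seurat 4.4.0 and 2 build names, GRCm38 and mm10, with no role. Not given in the sources used here: annotation release, handling of introns and strand, removal of doublets or free RNA. Of 32285 features, 32158 were found in GENCODE M21.

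Filters on nuclei asked for 500 UMIs, 300 genes and no more than 5% mitochondrial UMIs, and left 7139 of SD, 6726 of MASLD (202 left out) and 7591 of Aza-TdC (7 left out). No doublet caller was used, so doublets remain. The 3 libraries were clustered together without the 5 genes (Python 3.11.15 with scanpy 1.11.5 and igraph 0.11.9; 3000 variable genes, 30 components, 15 neighbours, Leiden resolution 1). A cluster took the class whose markers had a median log2 ratio of at least 3 to the other nuclei of its library, or was hepatocyte-like by the level of hepatocyte markers, and lost its name for leading genes of another class or low depth. The use of ratios within a library and the threshold were settled after clusters had been seen.

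UMIs were summed per library and class and scaled to CPM. Levels have exact Poisson, shares exact Clopper-Pearson and ratios exact conditional binomial intervals (scipy 1.17.1), at 95%, for counting error only. They were checked on simulated counts. Thinning drew 3000 UMIs per nucleus. The 5 genes were named throughout, with up to 4 genes per list by the MASLD to SD ratio bound nearest 0, Pparg, Ppara and Creb3l3, and the 3 genes most like each of the 5, of which 1 is not reported here. Plin2, Plin5, Fabp4 and the antisense neighbours are given because a comparison uses them. The members, lists and tests were chosen with earlier results of these data known. Alternatives changed scaling, filters, naming, clustering, thinning and the zonation index.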

Additional observations from a re-analysis of the deposited data

How the results depend on the processing

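Of 158 results, each with its alternatives, the direction of the MASLD to SD and Aza-TdC to MASLD ratios of all 5 genes was kept under each of 11 alternatives. With median-ratio scaling, which shifts every MASLD to SD log2 ratio by -0.16 and every Aza-TdC to MASLD ratio by 0.09, Cideb was at 0.41 and -0.57, Cidec at 3.96 and -1.21, and Fitm2 at 1.11 in MASLD to SD. Leiden resolution 2, where a leading Themis left 1 large MASLD cluster out, put Fitm1 at 2.11 and -1.50 and Cidea at -5.39 in Aza-TdC to MASLD. Thinned to 1500 UMIs, 4.36% of MASLD nuclei held Cidea; unthinned 13.9% did, and 5.43% held at least 2 UMIs. With an index from the pericentral and periportal lists, Cidec rose by 0.56 across the MASLD zones. The odds ratio of Cidea with Cidec in MASLD was 1.06 over the zones and 2.11 unthinned. At 1500 UMIs, 4 odds ratios fell under 1: Cidea with Fitm2 (0.967) and Cidec with Fitm1 (0.974) in MASLD, and Fitm1 with Fitm2 in SD (0.761) and MASLD (0.794). The cause of these shifts was not tested. Depth limits what can be said of Cidea in SD and Aza-TdC, on 19 and 29 UMIs. No paired analysis was possible because each group holds 1 library.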

Other observations

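Several genes of lipid handling that were higher in MASLD than in SD stood above MASLD, or nearer to MASLD than to SD, in Aza-TdC. Pnpla3, a droplet-bound lipase-family protein, had 3.61, 35.8 and 124 CPM in SD, MASLD and Aza-TdC, so that Aza-TdC stood 3.46-fold above MASLD (3.27 to 3.66). Gpam, which makes the first step of glycerolipid synthesis, had 205.6, 599 and 818 CPM, and the acyl-CoA synthetase Acsl5 80.8, 235 and 312. Insig2, a brake on sterol regulatory element processing, had 63.9, 249.9 and 314 CPM, and Srebf1 had 109.5, 246 and 245. Gpat3 was at 9.81, 70.5 and 60.6 CPM and the lysosomal lipase Lipa at 43.2, 195 and 172, lower in Aza-TdC than in MASLD by log2 ratios of -0.22 (-0.29 to -0.14) and -0.18 (-0.22 to -0.14). Lpl was at 0.165, 4.52 and 4.41 CPM.

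Dffb, the nuclease that shares the CIDE-N domain, went the other way from the 5 genes in both steps, with 20.4, 15.2 and 23.1 CPM in the same order (log2 ratios of -0.42, -0.57 to -0.27, and 0.60, 0.46 to 0.75). Neither ratio was past the fold. Dffa did so in the first step only, with log2 ratios of -0.28 (-0.38 to -0.17) and -0.25 (-0.36 to -0.14). Within the Aza-TdC library Plin2 was lower on the Cyp2e1 side, at 188 CPM in zone 5 against 309 in zone 1 (log2 ratio -0.72, -0.80 to -0.64), opposite to Cidec in the same nuclei, which was higher there by 1.49 (1.35 to 1.63).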
